A study of Mus musculus with 7 samples.

Results

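Glutamate and GABA receptor subunit genes were followed across 7 mouse RNA sequencing libraries of induced neural stem cells, cortical neural stem cells and fibroblasts. The members were chosen by name alone: the AMPA (Gria), kainate (Grik), delta (Grid), NMDA (Grin) and metabotropic glutamate (Grm) receptor genes, the GABA-A subunit genes (Gabra, Gabrb, Gabrg, Gabrd, Gabre, Gabrp, Gabrq and the rho genes Gabrr) and the GABA-B genes (Gabbr). This gave 47 genes of the 24354 in the deposited table, and all 47 had 1 annotated gene in GENCODE M21 (GRCm38, the assembly also called mm10).

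Induced neural stem cells (iNSCs) gave 5 of the libraries. Such cells are made from fibroblasts by virally delivered factors followed by culture in medium for neural stem cells. The lines are labelled DTA, pBKSM, pOKSM, and mcBKSM clones 1 and 3. From knowledge of the field, K, S and M are taken as Klf4, Sox2 and Myc, B as Brn4, O as Oct4, and p and mc as polycistronic and monocistronic vectors. The reference libraries were 1 of control neural stem cells (cNSC) from the cerebral cortex and 1 of mouse embryonic fibroblasts (MEF) from bodies without head and internal organs, all from embryonic day 13.5. The fibroblasts and the pBKSM, pOKSM and mcBKSM lines carried Oct4-CreER and Rosa26-loxSTOPlox-EYFP on the strain given as C57BL/6-Pou5f1 x 129X1/SvJ. The DTA line carried Oct4-CreER with Rosa26-loxSTOPlox-DTA, a Cre-dependent diphtheria toxin gene, with its strain given as Unknown and its vector not given. The cNSCs came from OG2/ROSA26 mice, so strain cannot be told apart from cell type in comparisons with cNSC. Each library was made from RNA pooled over 2 to 3 biological replicates, per the labels' protocols, so no library shows the spread between cultures. The group mcBKSM alone had more than 1 library, both of them single clones.

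Ionotropic glutamate receptors are cation channels assembled as tetramers within a class. AMPA receptors carry fast excitatory transmission, kainate receptors tune it, NMDA receptors need the subunit encoded by Grin1, and delta receptors act mainly as synaptic adhesion and signalling proteins. Metabotropic glutamate receptors and GABA-B receptors are coupled to G proteins, and GABA-A receptors are pentameric chloride channels, usually of alpha, beta and gamma subunits. Neural stem cells and glial progenitors of the embryonic brain are known to express several of these receptors before synapses form, and GABA and glutamate act on their proliferation.

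Levels are given in FPKM, a fragment count divided by transcript length and library size, so levels can be compared between genes. The files hold no counts. From the spacing of low values, depth was estimated at 11.9 M (pBKSM) to 17.3 M (DTA) fragments, at which 3 fragments on a 4 kb transcript give 0.0456 FPKM (DTA) to 0.0663 FPKM (pBKSM). Lower values rest on a few fragments, and this limit reflects counting error alone. Fibroblast markers summed to 0.753 to 26.5 FPKM in the iNSC libraries, 0.348 FPKM in cNSC and 1410 FPKM in MEF, while neural stem cell markers summed to 3510 to 7150 FPKM in the iNSC libraries, 6280 FPKM in cNSC and 2240 FPKM in MEF, where Vim alone gave 2240. Microglial markers summed to 0.247 to 0.485 FPKM in the iNSC libraries, 0.162 FPKM in cNSC and 14.8 FPKM in MEF. In MEF, Tmem119 alone gave 13.8 of this, and each of the others was at most 0.61. Endothelial markers summed to at most 1.09 FPKM in any library. Smooth muscle markers, of which 3 of 3 tested were lower in iNSCs than in cNSC and in MEF, summed to 0.38 to 1.12 FPKM in the iNSC libraries, 59.1 FPKM in cNSC and 146 FPKM in MEF. In bulk RNA, fewer cells of a type and less RNA per cell cannot be told apart.

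Of the 47 receptor genes, 23 reached 1 FPKM in at least 1 library and 24 did not. The DTA library had 16 members at or above 1 FPKM, pBKSM 14, pOKSM 12, mcBKSM clone 1 7 and clone 3 5, against 14 in cNSC and 6 in MEF. Over all genes the same threshold was passed by 44.8% (MEF) to 46.9% (cNSC), so the libraries differed far less in the number of genes detected than in the number of receptor genes. Summed over all members, the level was 227 FPKM in DTA, 190 in pBKSM, 98.6 in pOKSM, 66.1 and 73.4 in clones 1 and 3, 138 in cNSC and 54.0 in MEF. The clones were thus closer to fibroblasts than to cNSC by this sum, although, as shown next, different genes made it up.

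**Figure D1:**
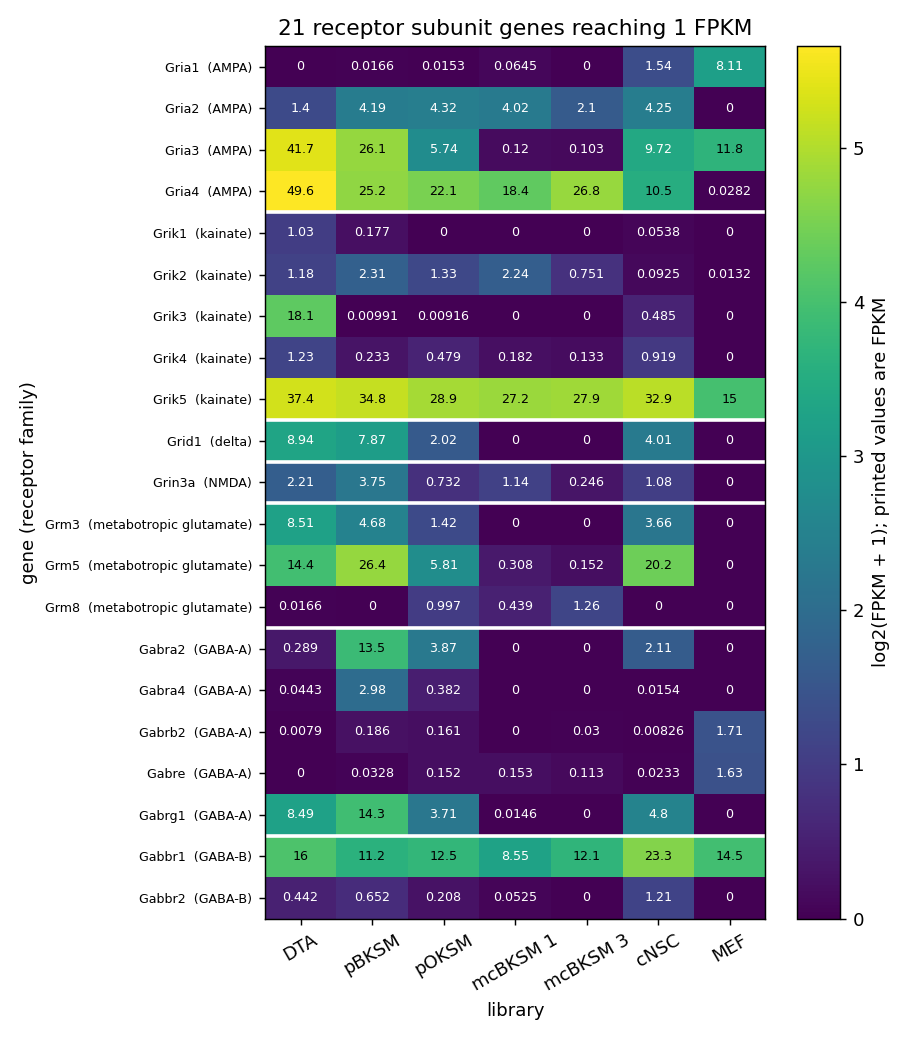
FPKM of 21 of the receptor genes that reached 1 FPKM in at least 1 library, in rows by receptor family, with libraries in columns; colour is log2(FPKM + 1) and the printed numbers are FPKM. Gria4, Grik5 and Gabbr1 are above 8 FPKM in all 5 iNSC libraries, whereas Gria3, Grid1, Grm3, Grm5, Gabra2 and Gabrg1 are near 0 in the mcBKSM clones and present in pBKSM, pOKSM and cNSC.

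AMPA receptor genes had the highest summed level of the families in DTA, pBKSM, pOKSM and clone 3, and kainate genes in clone 1 and cNSC. Gria4 (GENCODE ENSMUSG00000025892.16, chromosome 9, 4417896 to 4796234, minus strand), encoding the subunit GluA4, was 49.6 FPKM in DTA, 25.2 in pBKSM, 22.1 in pOKSM, 18.4 and 26.8 in clones 1 and 3, 10.5 in cNSC and 0.0282 in MEF. Every iNSC line was above both cNSC and MEF. Against MEF the rise passed the test (28.4 ± 12.3 FPKM in iNSCs, SD, n = 5, against 0.0282 in MEF; log2 difference 4.75 ± 0.51, SE; limma adjusted p = 0.00301). Against cNSC it did not, with a log2 difference of 1.28 ± 0.51 (limma adjusted p = 0.364). All log2 differences are of log2(FPKM + 1), a scale that compresses changes at low levels. The p-values rest on the spread between iNSC lines, and the lone cNSC and MEF libraries are assumed to vary alike. Both mcBKSM clones, which share a label group, count as separate lines in this spread and in n = 5.

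Gria1 (chromosome 11, 57011387 to 57330244, plus strand), encoding GluA1, ran the other way. It was listed at 0 in DTA and clone 3, was 0.0166 FPKM in pBKSM, 0.0153 in pOKSM and 0.0645 in clone 1, and was 1.54 in cNSC and 8.11 in MEF. The 5 iNSC libraries were at or near the floor and did not overlap with either reference. The fall against MEF was -3.16 ± 0.12 on the log2 scale (SE, limma adjusted p = 8.21e-05), and against cNSC -1.32 ± 0.12 (limma adjusted p = 0.0121). The call against cNSC ended without pOKSM (adjusted p = 0.0947), without clone 1 (0.0584) and without clone 3 (0.0749), and also when MEF was left out of the fit (0.0994). Of the 4 smooth muscle markers summed above, Acta2 (47.5 FPKM in cNSC and 99.8 in MEF) and Tagln (6.04 and 45.2) were likewise high in both references. They were at most 0.86 and 0.337 FPKM in the iNSC lines. Cnn1 was 5.61 FPKM in cNSC but 0.471 in MEF. Myh11 was at most 0.802 FPKM and higher in every iNSC line than in either reference. The part of these markers in this result was not tested.

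Gria2, whose subunit GluA2 makes AMPA channels nearly impermeable to calcium once its transcript is edited, was lower than Gria4 in every neural library. It was 1.40 FPKM in DTA, 4.19 in pBKSM, 4.32 in pOKSM, 4.02 in clone 1, 2.10 in clone 3, 4.25 in cNSC and listed at 0 in MEF. It was detected in each neural library, but the difference of iNSCs from MEF did not pass (log2 difference 2.00 ± 0.51, limma adjusted p = 0.0538). Gria2 made up 1.51% of the summed AMPA subunit FPKM in DTA, 7.54% in pBKSM, 13.4% in pOKSM, 17.8% and 7.24% in clones 1 and 3, 16.4% in cNSC and 0% in MEF. FPKM does not show whether the transcripts were edited.

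Gria3 separated the lines most. It was 41.7 FPKM in DTA, 26.1 in pBKSM and 5.74 in pOKSM, only 0.120 and 0.103 in clones 1 and 3, and 9.72 in cNSC and 11.8 in MEF. The clone values correspond to roughly 9 and 7 fragments, so the gene was close to the floor in both clones while the fibroblasts expressed it. As a share of the AMPA sum, Gria3 was 45% in DTA, 47.1% in pBKSM and 17.9% in pOKSM, against 0.531% and 0.355% in the clones, where Gria4 alone gave 81.4% and 92.4%. In MEF the sum was Gria1 (40.7%) and Gria3 (59.1%).

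**Figure D2:**
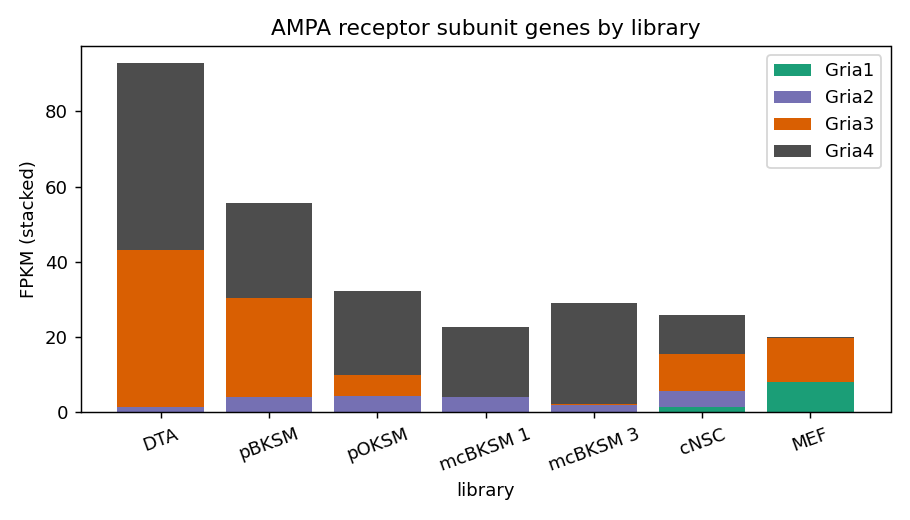
Stacked bars of the FPKM of the 4 AMPA subunit genes in each library. Gria4 is the main gene in pOKSM and both clones, Gria3 adds 41.7 FPKM in DTA and 26.1 in pBKSM, and MEF holds Gria1 and Gria3 with almost no Gria4.

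The kainate family was dominated by Grik5, encoding GluK5, a high-affinity subunit that forms channels only together with GluK1, GluK2 or GluK3. Grik5 (chromosome 7, 25009849 to 25072346, minus strand) was 37.4 FPKM in DTA, 34.8 in pBKSM, 28.9 in pOKSM, 27.2 and 27.9 in clones 1 and 3, 32.9 in cNSC and 15.0 in MEF. It was the most even of the abundant members, at 31.3 ± 4.56 FPKM in iNSCs (SD, n = 5). It rose by 1.0 ± 0.22 on the log2 scale over MEF (limma adjusted p = 0.0345), a call that ended without pBKSM (adjusted p = 0.0549), pOKSM (0.0859), clone 1 (0.0573) or clone 3 (0.0672). Grik2 was 1.18 FPKM in DTA, 2.31 in pBKSM, 1.33 in pOKSM, 2.24 in clone 1, 0.751 in clone 3, 0.0925 in cNSC and 0.0132 in MEF, and did not pass against MEF (adjusted p = 0.0793) or cNSC (adjusted p = 0.296). Grik1, Grik3 and Grik4 exceeded 1 FPKM only in DTA among the 7 libraries.

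Of the delta receptor genes, Grid1 was 8.94 FPKM in DTA, 7.87 in pBKSM, 2.02 in pOKSM, listed at 0 in both clones and in MEF, and 4.01 in cNSC (iNSCs against MEF, log2 difference 1.61 ± 1.51, limma adjusted p = 0.496).

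NMDA receptor genes were low throughout. The obligatory subunit gene Grin1 reached at most 0.913 FPKM, in cNSC, and lay between 0.0547 and 0.398 FPKM in the iNSC lines. Grin2a, Grin2b, Grin2c and Grin2d stayed at or below 0.595 FPKM in every library. Grin3a, encoding a subunit that lowers calcium flow through NMDA receptors, was the highest member, at 2.21 FPKM in DTA, 3.75 in pBKSM, 0.732 in pOKSM, 1.14 in clone 1, 0.246 in clone 3, 1.08 in cNSC and listed at 0 in MEF. Its differences passed no test (iNSCs against MEF, log2 difference 1.23 ± 0.71, adjusted p = 0.294). Grin3b shares 32.1% of its exon bases with Tmem259 on the opposite strand, so its values of at most 0.0432 FPKM are uncertain.

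Among metabotropic receptors, Grm5 and Grm3 were expressed and the rest were low. Grm5, a group I receptor that signals through phospholipase C and is found on neural progenitors and young astrocytes, was 14.4 FPKM in DTA, 26.4 in pBKSM, 5.81 in pOKSM, 0.308 and 0.152 in clones 1 and 3, 20.2 in cNSC and listed at 0 in MEF. Grm3, a group II receptor of glia, was 8.51 FPKM in DTA, 4.68 in pBKSM, 1.42 in pOKSM, listed at 0 in both clones and in MEF, and 3.66 in cNSC. Grm8 showed another pattern, with 0.997 FPKM in pOKSM, 0.439 in clone 1 and 1.26 in clone 3, and was 0.0166 in DTA and listed at 0 in pBKSM, cNSC and MEF. Grm4, Grm6 and Grm7 stayed below 1 FPKM, with 0.958 FPKM for Grm4 in pBKSM the highest, and Grm2 was listed at 0 in every library.

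GABA-A subunit genes were represented by few members. Of the 16 outside the rho group, 6 reached 1 FPKM, 10 did not, and Gabra6, Gabrp and Gabrq were listed at 0 in every library. Gabrg1, a gamma subunit found in glia, was 8.49 FPKM in DTA, 14.3 in pBKSM, 3.71 in pOKSM, 0.0146 in clone 1, listed at 0 in clone 3 and MEF, and 4.80 in cNSC. Gabra2 was 0.289 FPKM in DTA, 13.5 in pBKSM, 3.87 in pOKSM, listed at 0 in both clones and MEF, and 2.11 in cNSC. Gabra4 was 2.98 FPKM in pBKSM and at most 0.382 FPKM elsewhere. No alpha subunit gene reached 1 FPKM in DTA, clone 1, clone 3 or MEF.

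Members with low levels included Gabra3, Gabra5, Gabrb1, Gabrd and Gabrg3, of which Gabrg3 was highest at 0.488 FPKM in cNSC, and the rho genes, of which Gabrr2 was highest at 0.708 FPKM in DTA. Gabrb2 and Gabre were highest in MEF: Gabrb2 was at most 0.186 FPKM in the iNSC lines, 0.00826 in cNSC and 1.71 in MEF, and Gabre was at most 0.153 FPKM in the iNSC lines, 0.0233 in cNSC and 1.63 in MEF. Both passed the expression filter through MEF alone. Both fell against MEF, by log2 differences of -1.33 ± 0.15 for Gabrb2 (SE, limma adjusted p = 0.00347) and -1.27 ± 0.13 for Gabre (SE, limma adjusted p = 0.00273), and with no filter the adjusted p was 0.0018 for Gabrb2 and 0.000915 for Gabre.

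The GABA-B receptor needs both of its subunits at the cell surface. Gabbr1 was 16.0 FPKM in DTA, 11.2 in pBKSM, 12.5 in pOKSM, 8.55 and 12.1 in clones 1 and 3, 23.3 in cNSC and 14.5 in MEF, and all 5 iNSC lines were below cNSC, without passing (iNSCs against cNSC, log2 difference -0.92 ± 0.32, limma adjusted p = 0.317). Gabbr2, by contrast, was 0.442 FPKM in DTA, 0.652 in pBKSM, 0.208 in pOKSM, 0.0525 in clone 1, listed at 0 in clone 3 and MEF, and 1.21 in cNSC, so Gabbr1 exceeded it in every library.

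The GABA-A genes lie in groups on the chromosomes, and their levels were read in that order. On chromosome 5, Gabrg1 (70751047 to 70842617), Gabra2 (70957597 to 71095849), Gabra4 (71569749 to 71658308) and Gabrb1 (71658113 to 72149037) are neighbours. In pBKSM they were 14.3, 13.5, 2.98 and 0.204 FPKM in that order. In both clones and in MEF none exceeded 0.0146 FPKM, whereas DTA held Gabrg1 at 8.49 with Gabra2 at 0.289 FPKM, so the neighbours did not always go together. On chromosome X, Gabre was 1.63 FPKM and Gabra3 0.206 FPKM in MEF, and Gabrq was listed at 0 in every library.

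**Figure D3:**
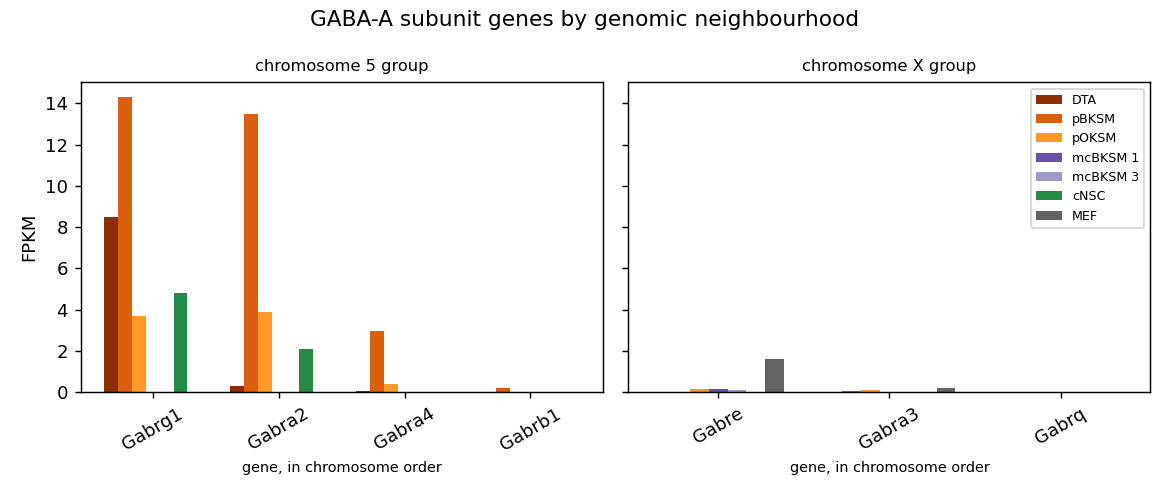
FPKM of GABA-A subunit genes that lie close together on chromosomes 5 and X, 1 panel for each group with genes in chromosome order, bars coloured by library. The chromosome 5 group is led by pBKSM (14.3 FPKM for Gabrg1, 13.5 for Gabra2), and the chromosome X group shows mainly the MEF value of 1.63 FPKM (Gabre).

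The sequences just before the starts of Gabrg1 and Gabra2 are shown because these neighbours were both present in pBKSM and near 0 in the clones. Beside them are those of Gria2 and Gria4, which were above 1 FPKM in every neural library. Each is the RefSeq window (GRCm38.p6, minus strand) of 250 bases up to the annotated start, 5′ to 3′, with CpG dinucleotides in capitals: chr5:70842618-70842867 for Gabrg1, chr5:71095850-71096099 for Gabra2, chr9:4796235-4796484 for Gria4 and chr3:80802836-80803085 for Gria2.
Gabrg1: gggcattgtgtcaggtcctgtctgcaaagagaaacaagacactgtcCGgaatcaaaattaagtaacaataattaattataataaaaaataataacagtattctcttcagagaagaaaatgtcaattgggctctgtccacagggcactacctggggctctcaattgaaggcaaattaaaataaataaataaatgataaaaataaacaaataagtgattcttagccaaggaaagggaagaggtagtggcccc
Gabra2: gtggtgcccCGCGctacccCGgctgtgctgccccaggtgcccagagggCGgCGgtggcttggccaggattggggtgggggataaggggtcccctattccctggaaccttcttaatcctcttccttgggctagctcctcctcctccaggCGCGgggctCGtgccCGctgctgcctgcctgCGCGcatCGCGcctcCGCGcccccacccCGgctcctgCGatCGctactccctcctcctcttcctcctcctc
Gria4: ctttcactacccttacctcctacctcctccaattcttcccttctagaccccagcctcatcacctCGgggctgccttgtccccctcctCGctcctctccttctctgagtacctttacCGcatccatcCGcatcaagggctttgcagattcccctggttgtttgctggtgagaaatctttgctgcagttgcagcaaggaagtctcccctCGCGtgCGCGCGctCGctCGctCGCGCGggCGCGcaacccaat
Gria2: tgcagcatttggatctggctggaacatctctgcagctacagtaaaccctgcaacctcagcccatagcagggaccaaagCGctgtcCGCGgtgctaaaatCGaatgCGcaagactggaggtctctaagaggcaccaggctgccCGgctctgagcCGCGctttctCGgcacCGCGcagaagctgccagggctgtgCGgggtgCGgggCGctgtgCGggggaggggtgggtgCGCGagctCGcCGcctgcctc
Gabrg1 holds 1 CpG and Gabra2 18, although the genes shared their pattern between pBKSM and the clones, and Gria4 and Gria2 hold 16 and 19. The median over all 32851 RefSeq windows is 6.

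Windows were found for 32 of the 47 members (39 windows), and 4 motifs were searched in them on both strands. The octamer ATGCAAAT, bound by POU factors such as Oct4 and Brn4, was in 0 of the 39 windows and in 1.6% of all windows. The Sox core ACAAAG was in 3 of 39 (7.69%, against 16.5% of all windows), the E-box CANNTG in 18 of 39 (46.2%, against 66.2%) and TATAAA in 4 of 39 (10.3%, against 12.4%). Of the windows shown, Gabrg1 held 2 E-boxes and the other genes 1 each, with no octamer, Sox core or TATAAA in them. These are letter matches in short windows and describe the sequence only.

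The class comparison asked which receptor genes differed between the iNSC lines and the MEF library. The DTA line carries another Rosa26 allele than these fibroblasts, with its strain given as Unknown. Genotype and strain are therefore mixed into this comparison. Of the 47 members, 23 passed the expression filter and were tested. Gria4 and Grik5 rose and Gria1, Gabrb2 and Gabre fell. Over all 13042 tested genes, limma called 6.77% higher and 9.55% lower (16.3% in either direction), so 2 and 3 of 23 are close to the table as a whole. At an unadjusted p under 0.05, 4 members were higher and 3 lower, where 14.7% of all tested genes were higher and 17.6% lower. The median difference over all 47 members was 0.09 on the log2 scale, against 0 over all genes of the table. Over the 23 tested members, the basis also used for the partner lists below, it was 0.96, against 0.03 over all tested genes. Grm5, listed at 0 in MEF, ranged from 0.152 to 26.4 FPKM among the iNSC lines and did not pass (limma adjusted p = 0.432).

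Against cNSC, 1 of the 23 tested members, Gria1, was lower in iNSCs and 0 were higher (2 higher and 3 lower at an unadjusted p under 0.05). Limma called 0.207% of all tested genes higher and 0.958% lower (1.17% in either direction), and 6.06% higher and 7.58% lower at an unadjusted p under 0.05. This comparison uses the same 5 iNSC libraries as that with MEF. Grm5 (adjusted p = 0.655) and Gabbr2 (adjusted p = 0.338) did not pass. As a reference, cNSC and MEF were 1 library each and were set side by side with no test. On the log2(FPKM + 1) scale, 11 of the 23 members that passed the filter were 2-fold or more higher in cNSC (among them Gria2, Gria4, Grid1, Grik5, Grin3a, Grm3, Grm5, Gabra2, Gabrg1 and Gabbr2) and 3 were 2-fold or more lower (Gria1, Gabrb2 and Gabre). Of the 13042 genes that passed the filter, 15.3% were that much higher and 14.5% lower.

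Among the iNSC lines, pBKSM was set against the mcBKSM clones, which share their factors by label and differ in vector type. The mcBKSM libraries are also single clones, and pBKSM is not labelled as a clone, so clone and vector type cannot be told apart. In pBKSM, 7 of the 23 tested members were higher and 0 lower (10 and 0 at an unadjusted p under 0.05), where limma called 3.74% of all tested genes higher and 2.08% lower (5.82% in either direction). At an unadjusted p under 0.05 the shares of all tested genes were 20.1% higher and 17.3% lower. The genes were Gria3, Grid1, Grm3, Grm5, Gabra2, Gabra4 and Gabrg1, which belong to 4 receptor families, and each had an adjusted p of 0.0367, the smallest in the table. The differences were 4.61 ± 0.13 for Gria3, 4.48 ± 0.16 for Grm5, 3.93 ± 0.09 for Gabrg1, 3.86 ± 0.06 for Gabra2, 3.15 ± 0.08 for Grid1, 2.51 ± 0.07 for Grm3 and 1.99 ± 0.03 for Gabra4 (log2 scale, SE). Over all 47 members the median difference was 0.08, against 0 over all genes of the table. Over the 23 tested members it was 0.40, against 0 over all tested genes.

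Other members did not follow. Gria4 (log2 difference 0.17 ± 0.32, adjusted p = 0.723), Gabbr1 (0.13 ± 0.28, adjusted p = 0.763) and Gria2 (0.40 ± 0.41, adjusted p = 0.541) did not pass. Grm8 was the 1 member of at least 1 FPKM in a clone that was listed at 0 in pBKSM, and its difference did not pass either (-0.85 ± 0.38, adjusted p = 0.242). The spread here rests on 1 residual degree of freedom from the 2 clones, and with limma's mean-variance trend left out no member passed (adjusted p = 0.0595 for each of the 7). The call of Grm5 also ended with a pseudocount of 0.1 (adjusted p = 0.0539) and with no filter (0.0521), and Gabra4 passed the filter through pBKSM alone.

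**Figure D4:**
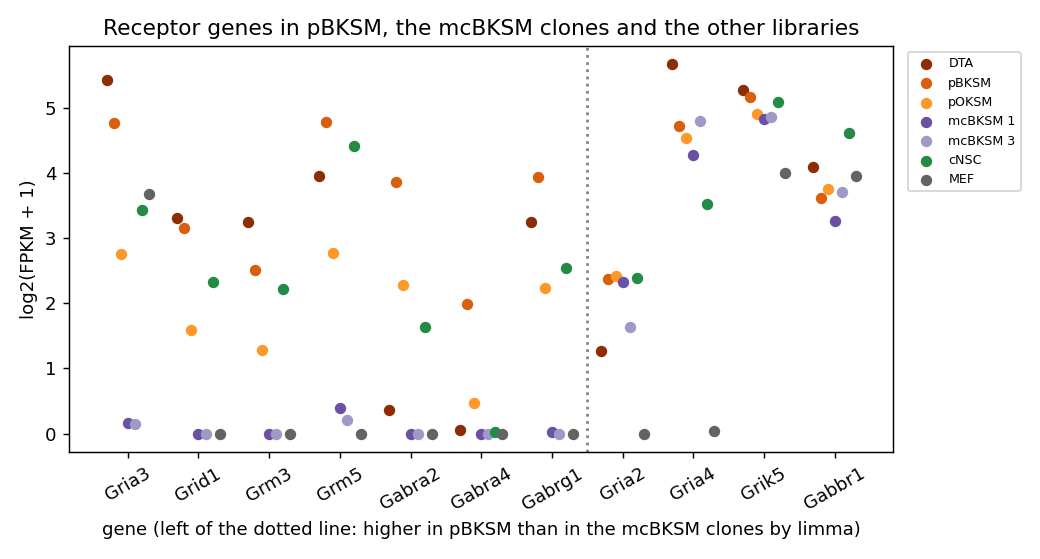
log2(FPKM + 1) of 11 receptor genes in each of the 7 libraries, 1 point a library. The 7 genes left of the dotted line were higher in pBKSM and sit at or near 0 in both mcBKSM clones, while Gria2, Gria4, Grik5 and Gabbr1 on the right lie between 1.4 and 49.6 FPKM in every iNSC library.

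The same genes were read in the other neural libraries, with thresholds chosen after their values were seen and no test. Of 10 members at or above 1 FPKM in DTA, pBKSM, pOKSM and cNSC together, 5 were below 0.5 FPKM in both clones (Gria3, Grid1, Grm3, Grm5 and Gabrg1) and 5 were not (among them Gria2, Gria4, Grik5 and Gabbr1). Over all 10372 genes that met the first condition, 89 (0.858%) met the second. In pOKSM, each of these 5 genes lay above 1 FPKM and below its level in DTA, pBKSM and cNSC.

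Markers of other cell types were read beside these genes, and they did not all move alike. Of the 9 astrocyte markers, 8 were tested against the clones and 4 were higher in pBKSM (S100b, Slc1a3, Aldoc and Aldh1l1). At an unadjusted p under 0.05, 7 were higher and 1, Gja1, was lower. Their sum was 923 FPKM in DTA, 704 in pBKSM, 249 in pOKSM, 194 and 182 in clones 1 and 3, 924 in cNSC and 60.1 in MEF, with Gjb6 at 0 in every library. The sum of the 8 oligodendrocyte precursor markers was 1600 FPKM in DTA, 1520 in pBKSM, 518 in pOKSM, 227 in clone 1, 184 in clone 3, 701 in cNSC and 117 in MEF. In the neural libraries it was mainly Olig1 and Olig2. In MEF both were listed at 0, and Pdgfra gave 108 FPKM and Cspg4 8.64. Sox10 stayed at or below 0.145 FPKM and Gpr17 at or below 0.12 FPKM. Of these 8 markers, Olig2 was higher and Pdgfra lower in pBKSM than in the clones, with 3 higher and 3 lower at an unadjusted p under 0.05. Besides Pdgfra, the lower ones were Cspg4 and Nkx2-2 (15.0 FPKM in pBKSM, against 40.7 and 34.8 in clones 1 and 3). Most neuronal markers ran opposite to these receptor genes, with 3 of 12 lower in pBKSM than in the clones (Rbfox3, Syt1 and Stmn2) and 0 higher (8 lower and 0 higher at an unadjusted p under 0.05). Their sum did not follow these calls, at 131 FPKM in DTA, 292 in pBKSM, 298 in pOKSM, 256 in clone 1, 299 in clone 3, 242 in cNSC and 27.9 in MEF. Map2 was its largest part in every neural library, with 259 FPKM in pBKSM, 113 in clone 1 and 160 in clone 3. The part of these cell types in the receptor result was not tested.

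The DTA line, whose toxin allele needs Cre made under Oct4 control, was compared with the other 4 iNSC lines, the mcBKSM clones counted separately. Of 19 tested members, 2 were higher and 0 lower (5 and 0 at an unadjusted p under 0.05), against 0.202% higher and 0.153% lower among the 12378 genes tested (0.355% in either direction). At an unadjusted p under 0.05, 10.4% of those genes were higher, and 20.5% differed in either direction. Grik3 (chromosome 4, 125490700 to 125714173, plus strand), encoding the kainate subunit GluK3, was 18.1 FPKM in DTA, 0.00991 in pBKSM, 0.00916 in pOKSM and listed at 0 in both clones. It was 0.485 in cNSC and listed at 0 in MEF, so DTA stood above all other libraries (log2 difference from the other iNSC lines 4.25 ± 0.21, SE, limma adjusted p = 0.0109). DTA is 1 library, so the spread comes from the other lines, and Grik3 passed the filter through DTA alone (with no filter, adjusted p = 0.00032). The call of Grik3 ended when pOKSM was left out (adjusted p = 0.142), when clone 1 was (0.124) or when clone 3 was (0.116), with a pseudocount of 0.1 (0.057) and with the filter raised to 5 FPKM (0.0709), although the difference kept its sign. Strain and vector of the DTA line are not given in the labels, so they cannot be told apart from the DTA allele.

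Further members were highest in DTA without passing. Gria4 was 49.6 FPKM in DTA and 23.1 ± 3.70 FPKM in the other lines (SD, n = 4; adjusted p = 0.117), Grm3 was 8.51 FPKM in DTA and 0 to 4.68 in the other lines (adjusted p = 0.304), and Grik1 was 1.03 FPKM in DTA and 0 to 0.177 in the other lines (adjusted p = 0.13). Grik4 was 1.23 FPKM in DTA and 0.133 to 0.479 FPKM in the other lines (adjusted p = 0.182). Gria2 was lowest in DTA, at 1.40 FPKM, against 3.66 ± 1.05 FPKM in the other lines (SD, n = 4; adjusted p = 0.27). Aqp4 was the 1 astrocyte marker of 8 tested that was called higher in DTA (limma adjusted p = 0.0422). It was 12.7 FPKM in DTA, against 0.0300 to 0.560 in the other lines, so it passed the filter through DTA alone. At an unadjusted p under 0.05, 4 of these markers were higher in DTA and 1, Gja1, was lower.

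**Figure D5:**
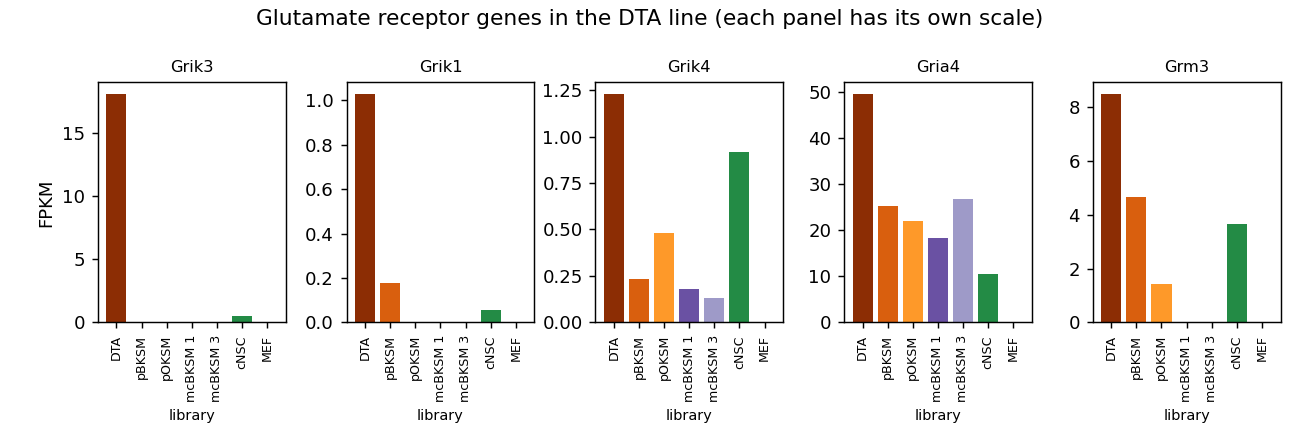
FPKM of 5 glutamate receptor genes in each library, 1 panel a gene, each with its own linear scale from 0. Grik3 was called higher in DTA (18.1 FPKM), and Grik1, Grik4, Gria4 and Grm3 also have their highest value there without passing.

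Proteins that accompany these receptors were read from 5 lists, whose counts stand beside the shares of all tested genes given above for each comparison. Of the 15 AMPA and kainate auxiliary subunit genes, 12 were tested, and 2 rose in iNSCs against MEF and 0 fell (3 and 0 at an unadjusted p under 0.05), with a median difference of 1.31 against 0.03 over all tested genes, of which 6.77% rose and 9.55% fell. Cacng7 and Cacng8, members of the family of transmembrane AMPA receptor regulators, rose: Cacng7 was 62.8 ± 9.70 FPKM in iNSCs (SD, n = 5) and 19.0 in MEF (adjusted p = 0.00843), and Cacng8 was 13.1 ± 2.69 FPKM in iNSCs and 1.26 in MEF (adjusted p = 0.00386). Cacng7 was thus more abundant than any AMPA subunit gene in every iNSC library. In pBKSM against the clones 4 were higher and 0 lower (6 and 1 at an unadjusted p under 0.05), with a median of 0.68 against 0, where 3.74% of all tested genes were called higher, and 20.1% were higher and 17.3% lower at an unadjusted p under 0.05. Without the mean-variance trend limma called 0 genes of the table in this comparison, so these calls and those of the other lists in pBKSM end too. The 4 genes were the kainate receptor partners Neto1 (18.6 FPKM in pBKSM, against 0.0598 and 0 in clones 1 and 3; adjusted p = 0.0367) and Neto2 (40.1 in pBKSM, against 2.28 and 2.82 FPKM in the clones; adjusted p = 0.0402), the AMPA receptor export factor gene Cnih2 (21.1 in pBKSM, against 1.59 and 1.76 FPKM in the clones; adjusted p = 0.04) and Gsg1l (0.756 in pBKSM, against 0 and 0.0197 FPKM in the clones; adjusted p = 0.039). Against cNSC limma called 0 (0 higher and 1 lower at an unadjusted p under 0.05), and between DTA and the other lines also 0 (3 higher and 0 lower at an unadjusted p under 0.05).

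Of 25 postsynaptic scaffold genes, 21 were tested, and 4 rose and 0 fell against MEF (7 and 0 at an unadjusted p under 0.05, where 14.7% of all tested genes were higher and 17.6% lower), with a median of 0.66. They were Grip1, whose protein binds AMPA receptor tails (12.5 ± 2.83 FPKM in iNSCs, SD, n = 5, and 0.0486 in MEF; adjusted p = 0.00254), Lhfpl4, a partner of GABA-A receptors (11.6 ± 4.97 FPKM in iNSCs and listed at 0 in MEF; adjusted p = 0.0106), Shank3 (2.22 ± 0.616 FPKM in iNSCs and 0.00878 in MEF; adjusted p = 0.02) and Dlgap4 (29.1 ± 2.55 FPKM in iNSCs and 14.9 in MEF; adjusted p = 0.019). In pBKSM, Dlgap3 (17.0 FPKM, against 0.361 and 0.477 in the clones; adjusted p = 0.0367) and the synaptic adhesion gene Nlgn3 (14.0 in pBKSM, against 0.162 and 0.258 FPKM in the clones; adjusted p = 0.0367) were higher and 0 lower (7 higher and 6 lower at an unadjusted p under 0.05; median 0.35). Against cNSC, Dlgap1 was lower (at most 0.0506 FPKM in the lines, against 1.02 in cNSC, limma adjusted p = 0.0139). Dlgap1 was 0.176 FPKM in MEF and passed the filter through cNSC alone. In this comparison 0 scaffold genes were higher (1 higher and 2 lower at an unadjusted p under 0.05, with a median of -0.37). In DTA limma called 0 of 20 (1 higher and 0 lower at an unadjusted p under 0.05; median 0.36).

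Transmitter handling genes were read in the same way. Of 13 transporter genes 5 were tested. Slc1a4, a neutral amino acid transporter, rose against MEF (32.7 ± 2.28 FPKM in iNSCs, SD, n = 5, and 12.5 in MEF; adjusted p = 0.00387), and Slc1a3, the glial glutamate transporter GLAST, was higher in pBKSM (168 FPKM, against 32.3 and 29.5 in the clones; adjusted p = 0.0374), with 0 lower in either comparison. No vesicular glutamate or GABA transporter gene (Slc17a6, Slc17a7, Slc17a8 and Slc32a1) exceeded 0.542 FPKM. Limma called 0 transporter genes against cNSC (0 higher and 1 lower at an unadjusted p under 0.05) and 0 in DTA (2 and 0).

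Of 12 transmitter enzyme genes 11 were tested, and Abat, encoding GABA transaminase, rose against MEF (42.5 ± 14.6 FPKM in iNSCs, SD, n = 5, and 0.0996 in MEF; adjusted p = 0.00396) with 0 lower. In the other comparisons limma called 0 enzyme genes (1 higher and 2 lower against cNSC, 4 and 3 in pBKSM, and 3 and 2 in DTA at an unadjusted p under 0.05). Of the GABA synthesis genes, named after their values were seen, Gad1 was 3.20 FPKM in DTA and at most 0.538 FPKM elsewhere, and Gad2 at most 0.0811 FPKM. Of 5 chloride cotransporter genes 4 were tested and limma called 0 in each comparison (2 higher and 1 lower in pBKSM at an unadjusted p under 0.05, and 0 in the others). Slc12a2, which loads cells with chloride, was 9.02 FPKM in DTA, 44.7 in pBKSM, 17.2 to 23.4 FPKM in the other lines, 19.1 in cNSC and 22.4 in MEF, whereas Slc12a7 was highest in MEF at 12.7 FPKM. Medians over the tested enzyme and cotransporter genes lay between -0.33 and 0.43 in the 4 comparisons.

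Sequence shared with other genes was measured because shared reads make a level uncertain. Of the distinct 50-base stretches in GENCODE transcripts of the 21 members shown in the heat map, at most 1.27% (Grid1) also occurred in a transcript of another gene, and for the AMPA genes the highest share was 0.733% (Gria2). Gabra4 and Gabrb1 overlap by 46 exon bases on opposite strands. Whether the authors' counting used strand is not given in the sources used here.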

How the data were processed

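RNA was sequenced from 7 libraries. The authors deposited 1 table of FPKM values per gene. The tools named, per the submitters' processing notes, are Cufflinks 2.2.1 with Cuffnorm, STAR 2.5.2b and R 3.3.2, with the build mm10. The table holds no counts, and between 78.5% and 83.4% of the low values corresponded to whole fragments (tolerance 0.1) under an assumed fragment length of 200 bases, against 20.0% by chance, which gave the approximate depths.

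Log2(FPKM + 1) values were fitted with limma 3.58.1 (R 4.3.3) with a mean-variance trend on genes that reached 1 FPKM in any library fitted, and p-values were adjusted by Benjamini-Hochberg over all of them and called under 0.05. iNSCs were compared with MEF and cNSC in 1 fit of 3 classes, pBKSM with mcBKSM in a fit of 6 label groups, and DTA with the other iNSC libraries in a fit of the 5 iNSC libraries. cNSC against MEF had no test. The fits were tested on simulated data. Alternatives were a pseudocount of 0.1, no filter, a filter of 5 FPKM, quantile normalization, no trend, fewer libraries and each library left out. The receptor genes, partner lists and marker lists were chosen with earlier results of these data known.

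Genes reaching 1 FPKM were named with values in every library or a range, full statistics went to called members and the top gene of each tested family, and partner lists gave up to 4 called genes per comparison. A few genes that were tested are not reported here by name. Gene positions came from GENCODE M21 and upstream windows from RefSeq. Tables and plots used Python 3.11.15, pandas 2.3.3, numpy 2.4.6 and matplotlib 3.10.9.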

Additional observations from a re-analysis of the deposited data

Results flagged for a closer look

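In the 5 iNSC libraries, each of the 23 receptor genes that reached 1 FPKM was examined for a library far from the other 4, by the gap to its nearest neighbour over the whole range (Dixon's ratio, critical value 0.71), which chance passes in about 1 of 20 groups. For 2 genes described here the library was DTA: Grik3 at 18.1 FPKM (ratio 0.997) and Grik1 at 1.03 FPKM (0.77). Gabra4 stood apart in pBKSM at 2.98 FPKM (0.766). Grik3, Grik1 and Gabra4 each reached 1 FPKM only in the library named, so they were examined because of that library. The rate of about 1 of 20 therefore does not hold for them. Gria1 stood apart in clone 1 at 0.0645 FPKM (0.737), a value of about 5 fragments.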

How the results depend on the processing

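Of the alternatives run on called receptor genes named here, 92 with a test kept the direction and the call and 22 kept the direction and lost the call; of those on uncalled genes 384 stayed uncalled with the same direction, 2 gained a call and 3 reversed. The reversals were, against cNSC, Grik3 (-0.99) with a pseudocount of 0.1 and Grin3a without pBKSM (-0.084, with up to 0.40 when other lines were left out), and, in pBKSM against mcBKSM, Gria1 (0.015) with quantile normalization. With 1 mcBKSM clone left out no test was possible, and as values 3 uncalled genes changed sign between the clones left out: Gabbr1 (-0.092 without clone 1, 0.36 without clone 3), Gria4 (-0.084 and 0.43) and Gria1 (0.024 and -0.066), while the 7 called genes kept their direction. For iNSCs against MEF (2128 genes, 5 receptor genes), leaving out 1 library gave 1147 (pOKSM) to 3193 (DTA) genes, with 1417 without clone 3, and the 5 FPKM filter left 3 receptor genes. Against cNSC (152 and 1), the gene count was 74 with a pseudocount of 0.1, 618 with no filter, 74 with the 5 FPKM filter and 83 with the 2 classes only; without 1 library it was 50 (pOKSM), 59 (clone 3), 70 (clone 1) or 883 (DTA). The receptor count was 2 with no filter, 0 with the 2 classes only and 0 to 1 without 1 library. In pBKSM against mcBKSM (759 and 7), the gene count was 1454 with the 5 FPKM filter, 0 without the trend and 2536 with the 3 BKSM libraries only, and the receptor count 11 with no filter and 0 without the trend. Every call in this comparison therefore depends on the trend. For DTA (44 and 2), the gene count was 17 with a pseudocount of 0.1, 583 with no filter, 16 with the 5 FPKM filter and 98 without the trend, and without 1 library 0 (clone 1), 2 (clone 3), 3 (pOKSM) or 3951 (pBKSM). The receptor count was 0 with a pseudocount of 0.1, 0 with the 5 FPKM filter, 1 with quantile normalization and 0 to 5 without 1 library. The cause of these shifts was not tested. No paired analysis was possible because the replicate numbers only name libraries and no group but mcBKSM has more than 1.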
